A study of Danio rerio with 15 samples.

Results

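Libraries S12, S7 and S2 are 3 of 15 RNA-seq libraries made from pools of zebrafish (Danio rerio) embryo heads, and are called the trio here. They were chosen by a rule on the deposited tables: each is the second column of its treatment group, and its values were set against the other 12 libraries after centring within the treatment. S12 came from embryos injected with a guide RNA against ncapg2 together with Cas9, S7 from embryos injected with the guide RNA alone, and S2 from embryos injected with phenol red, a tracer dye. Each treatment had 5 libraries, so the other 12 comprise 4 libraries of guide RNA plus Cas9, 4 of guide RNA alone and 4 of phenol red. All embryos were offspring of natural matings of wild-type adults, were reared at 28 °C and were collected at 2 days post-fertilization. Each library was made from 20 heads, so a value is the average of a pool, and fewer cells of a type and less RNA per cell cannot be told apart. Embryos injected with Cas9 and a guide RNA can be mosaic, so their ncapg2 level is that of a mixture of cells. What the 3 libraries have in common in parentage, collection or sequencing lane is not stated in the sources used here.

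Cas9 is a nuclease that the guide RNA directs to a matching DNA site, and ncapg2 encodes part of condensin II, which folds chromosomes before a cell divides. The head of a zebrafish embryo at this age holds a differentiating brain and eye, with a lens already rich in crystallins, and the yolk and liver lie behind it. Zebrafish cells also carry a circadian clock: the Clock and Bmal (arntl) proteins switch on the per, cry and nr1d genes, whose products feed back to repress the clock, and the levels of these RNAs change over the day.

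The values are normalized counts as deposited: each count was divided by the size factor of its library. Reads assigned to genes, recovered from these values, totalled 48.5 M (M, mega) in S12, 39.8 M in S7 and 37.1 M in S2, within the range of 34.97 to 49.3 M over the other 12 libraries. Of 23009 genes in the tables, 22265 reached a value of 10 in 3 or more libraries and were compared. A difference below is the value of 1 trio library minus the mean of the other 4 libraries of its treatment, on the scale of log2(value + 1), averaged over the 3 treatments and given with the SD over those treatments (n = 3). This scale understates the difference of low genes. A gene was called separated where its 3 centred trio values all lay above, or all below, those of the other 12. Because the trio was chosen from these same values, its differences are a description and carry no test.

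The targeted gene did not mark the trio. The normalized count of ncapg2 (ENSDARG00000060023) was 407 in S12, within the range of 373 to 505 in the other 4 Cas9 libraries. It was 979 in S7, against 809 to 988 in the other 4 guide RNA libraries, and 868 in S2, against 754 to 945 in the other 4 phenol red libraries. The difference of the trio from the other libraries was 0.03 ± 0.11, so each of its libraries followed its treatment label.

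A small set of genes with large differences stood out in the trio. Separated genes numbered 459 higher (2.06% of the 22265 compared) and 405 lower (1.82%). Adding a difference of at least 2-fold left 67 higher (0.301%) and 85 lower (0.382%). These shares are what the rule itself selected, and nothing is read from them. In 57 of the 67 and 74 of the 85 genes, the deposited values of the trio and of the other 12 libraries did not overlap before centring. All of these genes had already been chosen for not overlapping after centring, so nothing is read from these counts either. The SD over the 3 treatments was below 0.25 of the difference for 49 of the 67 higher and 49 of the 85 lower genes. The rule itself favours genes with an even difference, so nothing is read from these counts. The counts of 67 and 85 became 38 and 40 with a pseudocount of 10 and 30 and 44 with a filter of 50, and the 85 became 133 without S5, S10 and S15. Just inside the 2-fold limit were btr16 (1.001 ± 0.17) and si:ch211-28p3.4 (-1.004 ± 0.38), and just outside it were il23r (0.997 ± 0.50) and zgc:198419 (-0.992 ± 0.12).

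**Figure D1:**
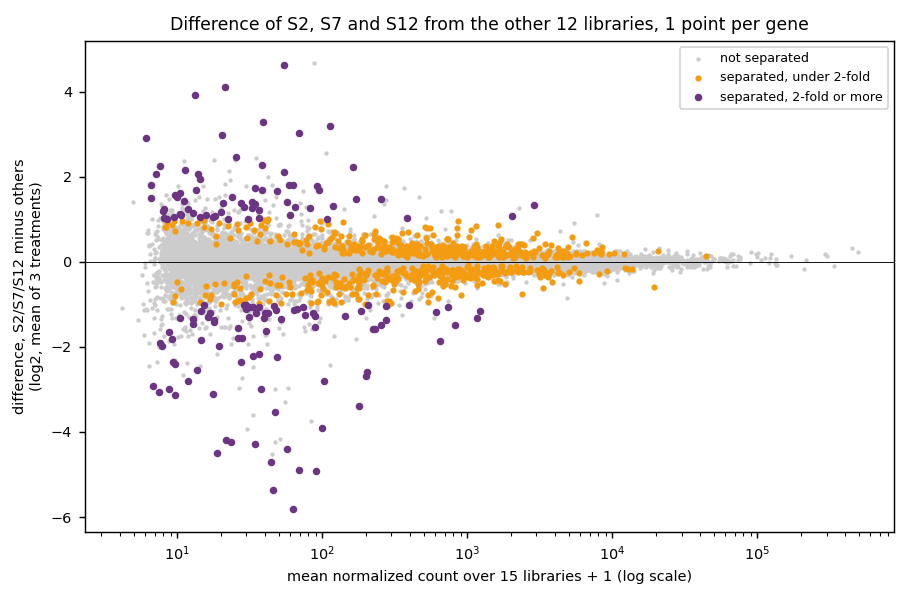
Difference of S12, S7 and S2 from the other 12 libraries (y axis, log2, mean over 3 treatments) against the mean normalized count over 15 libraries plus 1 (x axis, log scale), 1 point per gene for 22265 genes. The 152 separated genes past 2-fold (purple) lie mostly at low levels, while the 712 separated genes under 2-fold (orange) lie close to 0 at all levels.

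Among the genes far above the other libraries, the actin histidine methyltransferase gene setd3 (ENSDARG00000016513) had normalized counts of 5025, 5682 and 5635 in S12, S7 and S2, against 1703 to 3771 (median 1896) in the other 12 libraries. Its difference was 1.34 ± 0.11. Libraries S5, S10 and S15 held the highest of the other values, with a mean of 3328, and the trio lay above these too.

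Further genes of known families were lower in abundance and more widely spread. The multicopper oxidase gene hephl1b (ENSDARG00000026403) had the highest difference among named genes with a mean of 50 or more, 3.197 ± 0.36, with 292, 365 and 423 in S12, S7 and S2 against 14.1 to 108 (median 32.5) in the other 12. Protein kinase A catalytic subunit gene prkacbb had 361, 356 and 301 in the trio, against 4.53 to 225 (median 136). The other 12 were themselves of 2 kinds for prkacbb, because S5, S10 and S15 averaged 6.9 and the remaining 9 libraries lay between 103 and 225. The focal adhesion kinase family gene ptk2ba had 151, 263 and 212 in the trio, against 41.5 to 112 (median 57.0) in the other 12, with no overlap. The difference was 2.23 ± 0.17 for prkacbb and 1.79 ± 0.49 for ptk2ba, whose 3 libraries were less alike.

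Named higher genes with a role in immune recognition were picked out by their values, and the immune lists did not lean the same way. Of 28 interferon and RNA sensing genes, none was separated higher and 1 lower, with a median of -0.07, and of 34 antigen presentation genes 1 was higher and none lower, with a median of -0.04, against 2.06% higher and 1.82% lower over all genes. The collectin gene colec11, of the lectin pathway of complement, had 96.2, 83.1 and 68.3 in S12, S7 and S2, against 12.8 to 40.2 (median 23.6) in the other 12 (difference 1.69 ± 0.44). The B7 family gene hhla2a.2 had 141, 145 and 177 in the trio, against 48.6 to 85.6 (median 63.3) (difference 1.28 ± 0.21). Neither gene's values overlapped between the trio and the other 12. The gene annotated as SAMD9, whose human counterpart restricts viruses, differed by 1.81 ± 0.09 but did overlap in deposited values: the trio had 101, 120.4 and 100.2 and the other 12 had 8.91 to 106 (median 39.8). The peptidoglycan recognition gene pglyrp2 also overlapped, with 54.2, 68.2 and 61.7 in the trio, against 11.97 to 59.4 (median 21.9) in the other 12 (difference 1.36 ± 0.11). For SAMD9 the other libraries again fell into 2 levels, with means of 80.2 in S1, S6 and S11 and 79.4 in S3, S8 and S13, and of 10.23 in S4, S9 and S14 and 11.8 in S5, S10 and S15.

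Lens genes contributed a pair to the named higher genes. The gamma S crystallin gene crygs1 (ENSDARG00000042992) was nearly equal in the trio, at 177, 174 and 172, against 0.917 to 116 (median 28.3) in the other 12, and its difference was 3.04 ± 0.34. The galectin-related lens gene grifin had 590.1, 679.7 and 667 in S12, S7 and S2, against 229.8 to 441 (median 305) in the other 12, a difference of 1.03 ± 0.17. Crystallin family genes are near copies of each other, so reads may be split among them and the value of crygs1 is uncertain. Other named higher genes were noxred1 (2.48 ± 0.34) and dthd1 (1.74 ± 0.18), with trio values of 61.2, 66.1 and 65.0 for noxred1 and 69.9, 66.1 and 62.8 for dthd1, in the order S12, S7 and S2.

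**Figure D2:**
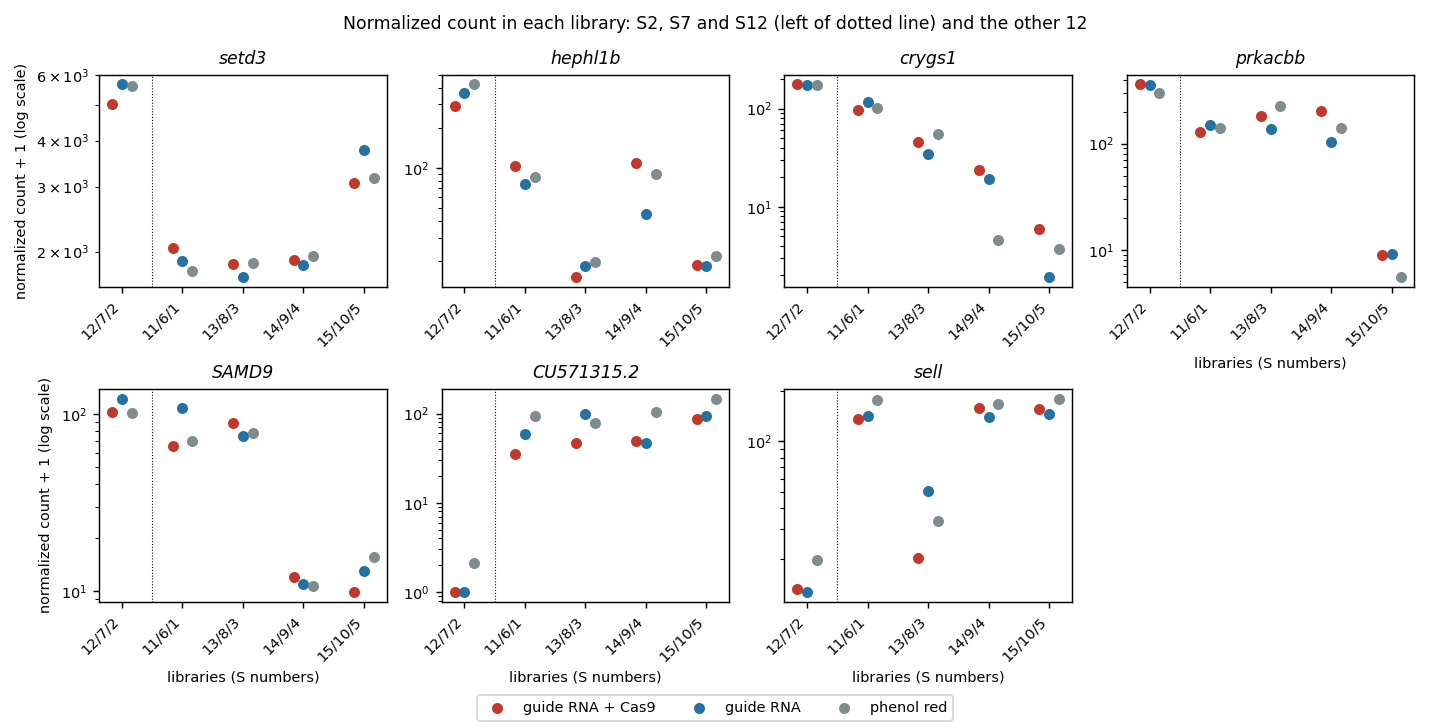
Normalized count plus 1 (y axis, log scale) of 7 genes in each of 15 libraries, grouped along the x axis by their place in the deposited tables, with S12, S7 and S2 left of the dotted line. For setd3, hephl1b, crygs1 and prkacbb the trio lies above every other library, for SAMD9 library S6 reaches the level of the trio, and for CU571315.2 and sell the trio lies below every other library.

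The genes far below the other libraries included several with almost no reads in the trio. Over S12, S7 and S2 together, 15 of the 85 lower genes had at most 3 reads and 5 had none. CU571315.2 had 1 read over the trio, with normalized counts of 0, 0 and 1.1 in S12, S7 and S2, against 34.0 to 146 (median 82.6) in the other 12. The mean of the other 12 was 229-fold that of the trio, and the 95% Poisson interval on that 1 read runs from 41.1-fold to 9047-fold. The non-coding gene si:dkey-103k4.3 was alike, with 0.874, 0 and 0 in the trio, against 20.1 to 99.2 (median 50.3). These were the only genes below 2 in all 3 trio libraries and at 20 or more in all 12 others, and no gene showed the reverse. Such intervals cover counting error only.

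Enzymes that attach glucuronic acid or sulfate to small molecules were part of this group. The glucuronosyltransferase gene ugt2a6 had 0 reads in S12, S7 and S2 and 13.8 to 29.9 (median 22.2) in the other 12, so that the trio was at least 7.31-fold lower with a floor of 3 reads per library. Its family member ugt2a5 had 97.9, 101 and 79.3 in the trio, against 174 to 237 (median 212), a difference of -1.16 ± 0.21. Of 24 measured genes of this family, 2 were separated lower (8.33%, against 1.82% of all genes) and none higher, and the median difference was -0.18. The trio was uneven here, with list medians of 0.05 in S12, -0.17 in S7 and -0.33 in S2. Measured in the same way, the median difference of S1, S6 and S11 was 0.53, so part of the group compared against was high. The cytosolic sulfotransferase gene sult1st7 had 1 read over the trio (0, 0 and 1.1), against 4.01 to 37.6 (median 31.7) in the other 12. For sult1st9 the trio had 15.7, 11.7 and 13.2, against 21.8 to 71.2 (median 45.7). Of 16 measured sulfotransferase genes, sult1st7 and sult1st9 were the 2 separated lower (12.5%), with none higher and a median of -0.11. The list medians were 0.08 in S12, -0.24 in S7 and -0.47 in S2, and the median difference of S1, S6 and S11 was 0.44. Both families hold near-identical neighbours, so these values are uncertain where the counting split or dropped reads.

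Low values in the trio were also found for adgre9 and sell, while the macrophage and neutrophil list had none of 33 genes separated lower and 1 higher, with a median of 0.02. The adhesion receptor gene adgre9 had 2 reads over the trio, with normalized counts of 0.874, 1.07 and 0, against 1.98 to 206 (median 88.1) in the other 12. Libraries S5, S10 and S15 were low as well, with a mean of 2.79, and the remaining 9 averaged between 73.4 and 157 by table position. The gene named sell, after the leukocyte adhesion receptor L-selectin, is annotated as non-coding in the tables, and it had 12.2, 11.7 and 18.7 in S12, S7 and S2 against 19.2 to 178 (median 142) in the other 12 (difference -2.81 ± 0.28). The lowest of the others, S13, was close to S2, at 19.2 against 18.7. Libraries S3, S8 and S13 were all low for sell, with a mean of 33.7, and the remaining 9 lay between 134 and 178.

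Other named lower genes differed by between 2-fold and 3-fold. The matrix metalloproteinase gene mmp30 had 258, 358 and 285 in the trio, against 518 to 871 (median 659) in the other 12 (difference -1.18 ± 0.23). The cartilage acidic protein gene crtac1a had 376, 435 and 361, against 605 to 1055 (median 873) (difference -1.05 ± 0.15), and the eye matrix proteoglycan gene optc had 37.6, 38.4 and 37.4, against 62.3 to 105 (median 81.4) (difference -1.07 ± 0.12). None of these 3 overlapped between the trio and the other 12. The alkylglycerol monooxygenase gene agmo had 180.1, 151 and 118 in the trio, against 252 to 358 (median 298) (difference -1.04 ± 0.39), and the kynurenine aminotransferase gene ccbl2 had 62.1, 59.7 and 66.1, against 97.5 to 245 (median 156) (difference -1.28 ± 0.13). The keratin gene krt93 (-1.53 ± 0.72) and the ammonium transporter gene rhcgl1 (-1.58 ± 0.86) had the least even differences, largest in S2 for both. The 2 left, dytn and snap23.2, differed by -1.13 ± 0.24 and -1.12 ± 0.23.

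The digestive protease gene ctrb1, which encodes chymotrypsinogen and marks the exocrine pancreas, was at 0 in S12, S7 and S2 and at 0.997 to 367 (median 18.3) in the other 12. Against a floor of 3 reads per library, the trio was at least 23.2-fold lower than the mean of the other 12, a mean raised by a few libraries up to the 367 given above. Other libraries were near the floor too, with 3.5 in S3, 7.26 in S4, 5.01 in S9, 0.997 in S14, 1.83 in S10 and 2.97 in S15. Of 23 measured gut and pancreas genes, 2 were separated lower (ctrb1 and the amylase gene amy2a) and none higher, against 1.82% and 2.06% of all genes. In all 3 trio libraries 11 were negative (47.8%, against 20.8% of all genes). The median centred value of the list was -0.01 in S12, -0.69 in S7 and -1.06 in S2, and the other 12 spanned -1.26 in S9 to 2.51 in S6. The summed normalized count of the list was 1609 in S12, 1338 in S7 and 1138 in S2, within the 1035 to 5049 of the other 12, and ctrb1 was the 1 member at 0 in all 3 trio libraries. The part of such tissue in the ctrb1 values was not tested.

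What the 152 genes past 2-fold shared, beyond the rule, was their annotation. A clone-style name, taken from a sequenced clone, or no name at all was found for 69.1% of them and for 23.5% of all genes compared. An assigned human counterpart was listed for 32.9%, against 74.6% of all genes, and 19.7% were annotated as non-coding, against 4.14%. These genes were also of low abundance, with a median of 32.4 against 575 for all genes. Among genes with a mean of 50 or more, the contrast was of similar size: 64.4% of the 73 members had a clone-style name or none, against 17.7% of 19000 genes. The 864 separated genes of any fold were closer to all genes, at 33.1% clone-style, 66.1% with a human counterpart and 5.32% non-coding. Clone-style names, matched by prefix, were carried by 4751 of the 22265 genes compared. Of separated genes of any fold, 132 of 459 higher and 140 of 405 lower genes of the trio had such a name. In S5, S10 and S15 it was 156 of 532 and 165 of 474. In S1, S6 and S11 it was 497 of 2478 and 296 of 2486, shares below that of all genes compared. None of these shares was tested, since the members had been chosen by their values.

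Some of these genes came from the same clone. Among the 92 with a clone in the name, 21 (22.8%) shared a clone with another of the 92, on 9 clones. Over all 4056 clone-named genes compared, 43.9% shared a clone with another of the 4056. Such a share rises with the size of the set, so these 2 shares cannot be set against each other. On these 9 clones the members were higher together or lower together, but on si:dkey-61p9 the 2 members were entries of the same name, si:dkey-61p9.9. With separated genes of any fold, 15 of 18 clones held members of 1 direction, and si:ch211-202f3, si:ch73-380l3 and si:dkey-102c8 each held 1 higher and 1 lower gene. The 15 include si:dkey-61p9 and si:dkey-147f3, whose 2 members each share 1 name. Of the 4 genes compared on clone BX511034, 3 were higher in the trio. BX511034.4 had 167, 147 and 167 in S12, S7 and S2, against 0 to 91.0 (median 7.06) in the other 12, and BX511034.3 had 48.1, 32.0 and 29.7, against 0 to 29.3 (median 0). Outside the trio, S5, S10 and S15 held most of the reads of BX511034.4 and BX511034.3, with means of 86.9 and 24.1, while S1, S6, S11, S4, S9 and S14 had none. On clone si:ch73-65n21, both compared genes, si:ch73-65n21.1 and si:ch73-65n21.2, were non-coding and lower, with differences of -2.59 ± 0.07 and -2.69 ± 0.33, with trio values of 34.1, 43.7 and 38.5 for si:ch73-65n21.1, against 167 to 336 (median 234). On clone si:ch211-250k18, si:ch211-250k18.6 had 131, 129.97 and 134 in the trio, against 8.47 to 112 (median 43.9), and 3 of its 4 compared genes were higher. Sharing reads between such neighbours, or between both strands where the counting ignored strand, cannot be told apart from separate changes with these tables.

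Other clone-style genes were high in the trio on their own. The gene si:dkey-13p1.3 had 139.9, 131 and 141 in S12, S7 and S2, against 8.91 to 17.1 (median 13.4) in the other 12, a difference of 3.29 ± 0.10 that was almost the same in each treatment. The gene si:ch211-283g2.1 had 92.7, 92.7 and 51.7, against 0 to 15.9 (median 4.19), and its S2 value was lower than those of S7 and S12. On the low side, si:dkey-169i5.4 had 3.5, 1.07 and 3.3, against 46.6 to 217 (median 114).

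Genes of the circadian clock were modestly higher in all 3 trio libraries. Of 39 measured members, 5 were separated higher (12.8%, against 2.06% of all genes) and none lower (1.82% of all genes). The list was chosen with earlier results of these data known, so its shares are a description and carry no test. A positive difference was found for 31 (79.5%, against 51.2% of all genes), and 26 were positive in each of S12, S7 and S2 (66.7%, against 22.7%). In each of these libraries 4 were negative (10.3%, against 20.8%). The median difference of the list was 0.18, with 0.17 in S12, 0.22 in S7 and 0.17 in S2, against a median of 0.00 over all genes. The largest member was nr1d1 (ENSDARG00000033160), which encodes the Rev-erb alpha repressor, with normalized counts of 1338, 1456 and 1369.5 in the trio, against 476 to 1211 (median 697) in the other 12 (difference 0.97 ± 0.12). Its relative nr1d2b had 8835, 9606 and 9055, against 6539 to 8376 (median 7565) (difference 0.28 ± 0.06). The relatives nr1d2a (0.27 ± 0.09), nr1d4a (0.07 ± 0.15) and nr1d4b (-0.13 ± 0.11) were not separated, and nr1d4b was negative in all 3 trio libraries. The clock repressor gene ciarta had 2223, 2239 and 2292, against 1289 to 1860.05 (median 1545), with a very even difference of 0.54 ± 0.02. The 2 other separated members were lonrf1l (0.67 ± 0.10) and hsf2 (0.40 ± 0.06). Both count among the 5, but neither is a Clock, Bmal, per, cry or nr1d gene of the loop described above.

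The per genes, part of the negative limb of the clock, leaned the same way without being separated, and they were picked out after their values were seen. For per1b the trio had 3395, 3976 and 3149, against 1884 to 3500.3 (median 2369) in the other 12 (difference 0.51 ± 0.19), and for per2 it had 6625, 6883 and 7221, against 3113 to 7827 (median 5409) (difference 0.38 ± 0.06). The difference was 0.63 ± 0.47 for per1a and 0.26 ± 0.10 for per3. Libraries S3, S8 and S13 had higher means than the trio for per2 (7027 against 6910) and for per3 (7620 against 7245). The cry genes on the list were not separated either, with differences from 0.0005 ± 0.03 for cry4 to 0.32 ± 0.12 for cry2. For cry1ba, S1, S6 and S11 had a higher mean than the trio (31504 against 23738). Genes of the positive limb were mixed. The Clock relative npas2 was at 0.20 ± 0.15 and clockb at 0.05 ± 0.04, both positive in all 3 libraries, and clocka was at -0.10 ± 0.08, negative in all 3. Of the Bmal genes, arntl1a was at -0.004 ± 0.10, with 1839, 1885 and 2068 in the trio, against 1468 to 2154 (median 2061), and arntl1b was at -0.05 ± 0.09 and arntl2 at 0.03 ± 0.14. Libraries outside the trio also varied in this list, whose median centred value was 0.14 in S12, 0.18 in S7 and 0.14 in S2 but also 0.19 in S8 and 0.10 in S4, and was lowest, at -0.20, in S1. By this median the list was highest in S8, a library outside the trio. Measured in the same way as for the trio, the median difference of S1, S6 and S11 was -0.21, so part of the group compared against was low. By the summed normalized count, which abundant members dominate, it was highest in S7, with 125035 in S12, 134443 in S7 and 129573 in S2, against 106692 to 132937 in the other 12.

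**Figure D3:**
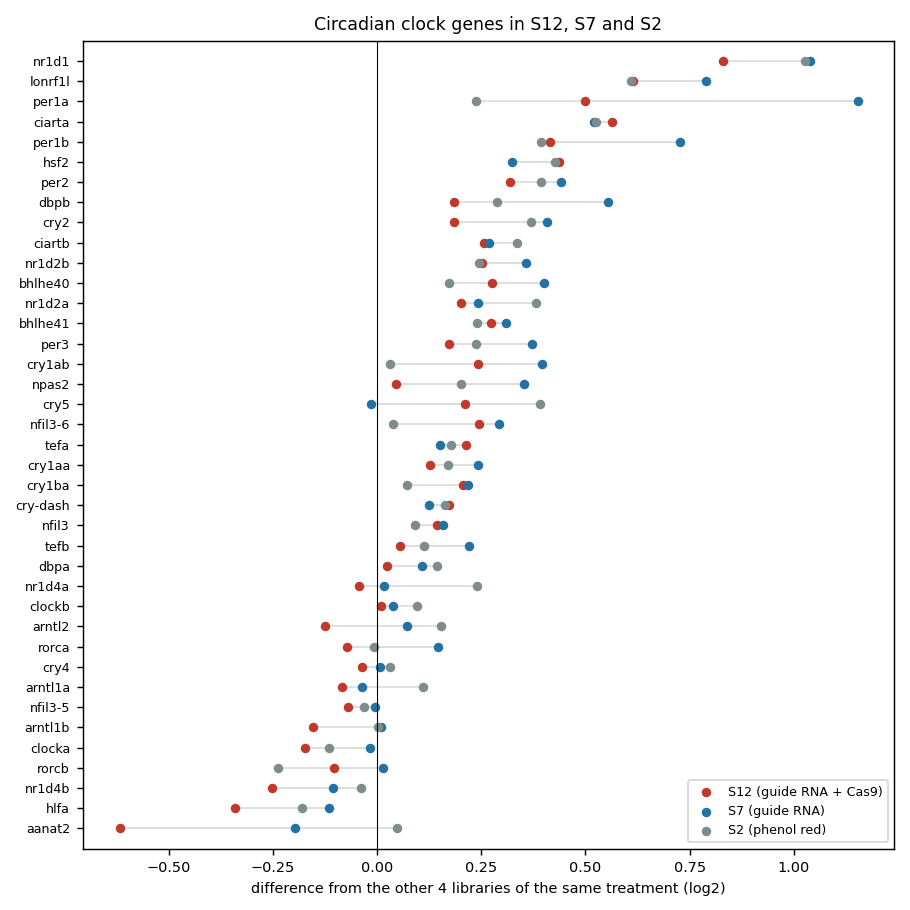
Difference of S12, S7 and S2 from the other 4 libraries of their treatment (x axis, log2) for 39 circadian clock genes, ordered by the mean of the 3. The repressor genes nr1d1 and ciarta and the per genes lie right of 0 in all 3 libraries, while arntl1a and arntl1b straddle 0.

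Genes of tissues outside the head differed among the 3 libraries of the trio. None of 37 measured yolk and liver genes was separated, and none was positive, or negative, in all 3 libraries. Their median difference was 1.96 in S12, -0.46 in S7 and -2.01 in S2. The liver fatty acid binding protein gene fabp10a, picked out after its values were seen, had 820, 228 and 17.6 in S12, S7 and S2, against 22.9 to 2189.7 (median 386) in the other 12. The summed normalized count of the list was 83142 in S12, 37466 in S7 and 33877 in S2, against 24832 to 136050.02 in the other 12. Posterior hox and tail genes followed the same order, with medians of 0.32 in S12, -0.07 in S7 and -0.20 in S2. Of 12, the T-box gene tbx16 was the 1 separated higher (0.66 ± 0.16; 8.33%, against 2.06% of all genes). Measured in the same way, the median difference of S1, S6 and S11 was 1.06 on this list and 2.66 on the yolk and liver list. Part of the group compared against was therefore high. The hatching enzyme gene he1a, picked out likewise, had 85.7, 287 and 336 in S12, S7 and S2, against 3.18 to 325 (median 31.4), with S13 at 227 and S15 at 325, so that the difference of S12 from its treatment was -0.29 while S7 and S2 were positive. Of 9 hatching gland genes, 2 were separated higher (22.2%, against 2.06% of all genes) and none lower, and 7 were positive, with list medians of 0.05 in S12, 0.18 in S7 and 0.21 in S2. The median difference of S1, S6 and S11 on this list was -0.14, with 2 genes separated lower there, so part of the group compared against was low.

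Lists of neuronal, photoreceptor and neural progenitor genes had small median differences of -0.01, -0.08 and -0.05. No neuronal or lens gene on the lists was at 0 in any library. None of 29 neuronal genes was separated. Over all genes 2.06% were separated higher and 1.82% lower, so 0 of 29 is near that share and nothing is read from it. The summed count of the neuronal list was 303526 in S12, 302531 in S7 and 291509.5 in S2, within the 259987 to 339177 of the other 12. Of 45 photoreceptor genes, 2 were separated lower (4.44%, against 1.82% of all genes) and none higher: the red opsin gene opn1lw1 had 123, 129.97 and 132 in the trio, against 150.4 to 336 (median 219) in the other 12 (difference -0.78 ± 0.14), and the transducin gamma gene gngt2a differed by -0.37 ± 0.17. Of 34 neural progenitor genes, the Notch target her4.2 was separated lower (-0.69 ± 0.23) and none higher. Its relative her4.3, not on the list and picked out after its values were seen, was separated lower as well (-2.36 ± 0.17). It had 4.37, 5.33 and 5.5 in S12, S7 and S2, against 15.6 to 54.4 (median 30.7) in the other 12. Mitosis genes, 42 in number, and condensin genes, 8 in number, had no separated member, with medians of 0.01 and 0.07. Nothing is read from a count of 0 in lists this short. Of the condensin genes, 5 were positive in all 3 trio libraries (62.5%, against 22.7% of all genes) and none was negative in all 3. Of the mitosis genes, 10 were positive in all 3 (23.8%).

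Lens genes leaned higher. Of 37 measured, 4 were separated higher (10.8%, against 2.06% of all genes) and 1 lower (2.70%, against 1.82%). A positive difference was found for 32 (86.5%, against 51.2% of all genes) and 22 were positive in all 3 libraries (59.5%, against 22.7%), with a median of 0.10 in S12, 0.24 in S7 and 0.10 in S2. Besides crygs1, the alpha A crystallin gene cryaa had 2878, 2735 and 2748 in the trio, against 1766 to 2351 (median 2088) in the other 12 (difference 0.42 ± 0.08). The lower member was crygn1 (-0.54 ± 0.17). The summed count of the list was 628741 in S12, 624176 in S7 and 628954 in S2, inside the 443654 to 681455 of the other 12. The median centred value of the list was 0.08 in S12, 0.20 in S7 and 0.08 in S2, but also 0.17 in S14 and 0.07 in S9. Measured in the same way as for the trio, the median difference of S1, S6 and S11 was -0.14, so part of the group compared against was low.

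Pigment cell genes were uneven. Of 24, 2 were separated higher (8.33%, against 2.06% of all genes) and none lower, with list medians of -0.02 in S12, 0.18 in S7 and 0.42 in S2. The median centred value of the list was -0.01 in S12, 0.14 in S7 and 0.33 in S2, but also 0.21 in S14. The median difference of S1, S6 and S11 was -0.14, so part of the group compared against was low. The receptor gene csf1ra, which is needed for yellow pigment cells and is also expressed in macrophages, had 1211, 1136 and 1139 in S12, S7 and S2, against 488 to 1057 (median 711) in the other 12 (difference 0.64 ± 0.10). The transcription factor gene tfec, of the pigment cell lineages, had 167, 174 and 206, against 100.1 to 154 (median 120.2) (difference 0.60 ± 0.20). No other of 33 macrophage and neutrophil genes was separated.

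Cholesterol synthesis and cartilage genes had small negative medians in each trio library. Of 26 cholesterol synthesis genes, 16 were negative in all 3 (61.5%, against 20.8% of all genes), with medians of -0.14 in S12, -0.16 in S7 and -0.13 in S2, and 1, the sterol transfer gene stard4, was separated lower (-0.31 ± 0.06; 3.85%, against 1.82% of all genes). Of 34 cartilage and neural crest genes, 22 were negative in all 3 (64.7%) and 3 were separated lower (8.82%), among them the cartilage regulator sox9a (-0.18 ± 0.01), while dlx4a was separated higher (0.29 ± 0.03). The cartilage list was not particular to the trio. Its median difference was -0.09 in the trio and -0.08 in S1, S6 and S11, and its lowest median centred value, -0.12, was that of S6. Of 48 DNA replication genes, 3 were separated higher (6.25%, against 2.06% of all genes), the origin recognition gene orc1 (0.34 ± 0.09) and the helicase genes mcm2 (0.21 ± 0.13) and mcm3 (0.12 ± 0.07), and the polymerase gene pold2 was separated lower (-0.24 ± 0.06). The median difference of the replication list was 0.10 in the trio and 0.07 in S1, S6 and S11.

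**Figure D4:**
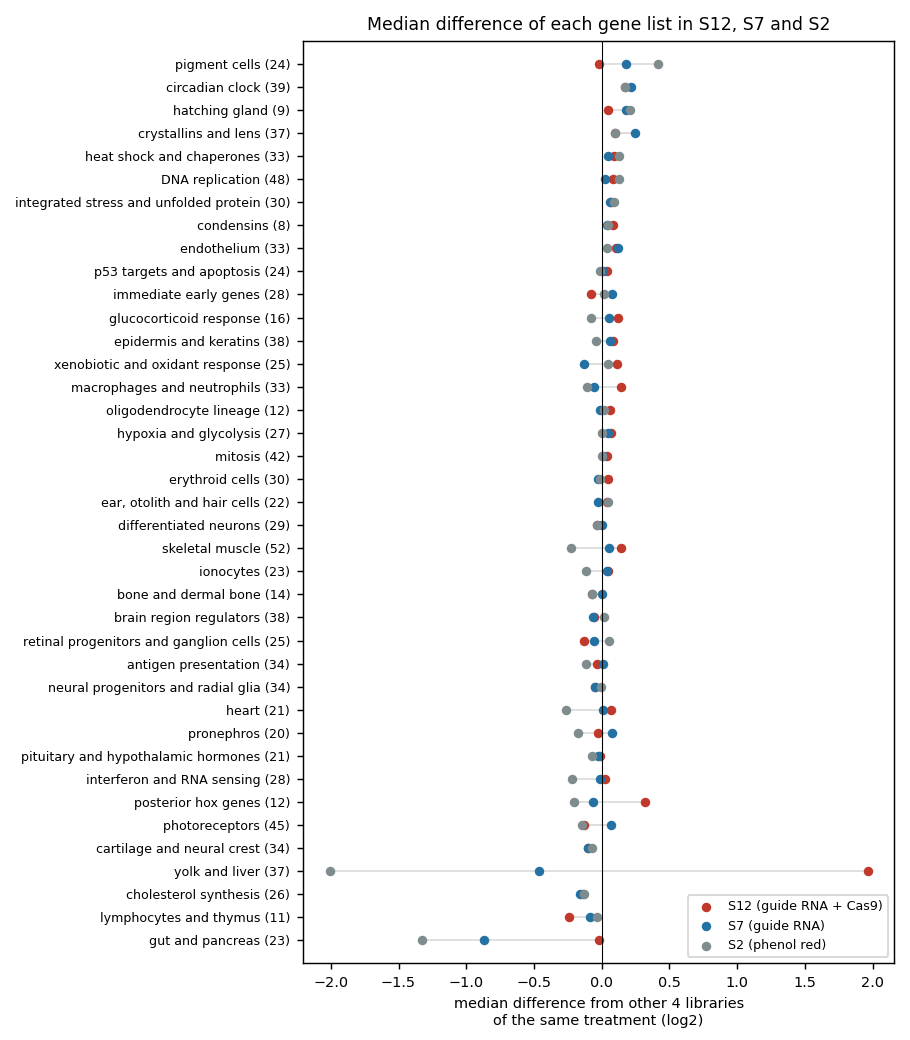
Median difference (x axis, log2) of 39 gene lists in S12, S7 and S2, each against the other 4 libraries of its treatment, with the number of genes measured in brackets. The yolk and liver list spans from -2.01 in S2 to 1.96 in S12, whereas the circadian clock, lens and cholesterol synthesis lists have their 3 libraries close together and on the same side of 0.

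The 3 libraries were not equally alike. Across 22265 genes, the differences of S7 and S2 had a Pearson r of 0.54, those of S12 and S7 0.48, and those of S12 and S2 0.14, with Spearman rho of 0.37, 0.38 and 0.28 in the same order. By Pearson r, library S2 was closer to S14 (0.34) and S10 (0.21), libraries of other table positions, than to S12. Spearman rho was not computed for S2 with S14 or S10. Genes share libraries and depth, so these correlations are descriptions without a p. Among other triplets by table position, S11, S6 and S1 had r between 0.76 and 0.77, and S15, S10 and S5 had r between 0.51 and 0.62. For S13, S8 and S3 r was between 0.37 and 0.44, and for S14, S9 and S4 between 0.33 and 0.499, so that the 0.14 of S12 and S2 was the lowest pair of all 5 triplets. Measured in the same way, S11, S6 and S1 had 456 separated genes past 2-fold higher (2.05%) and 71 lower (0.319%), and S15, S10 and S5 had 65 higher (0.292%) and 98 lower (0.44%). There were 17 higher (0.0764%) and 35 lower (0.157%) in S13, S8 and S3, and 29 higher (0.13%) and 62 lower (0.278%) in S14, S9 and S4. Having a set of such genes was therefore not particular to S12, S7 and S2.

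The treatments themselves gave a comparison that the choice of the trio did not use. Between guide RNA plus Cas9 and guide RNA alone, limma called 1 of 21590 genes (0.00463%), ncapg2, at a log2 fold change of -1.09 ± 0.08 (SE) and an adjusted p of 0.00032. With the trio left out it was called still, at -1.05 and an adjusted p of 0.016, with 4 libraries per group. With guide RNA plus Cas9 against phenol red, limma also called 1 gene (0.00463% of 21580), ncapg2, at -1.001 ± 0.09 (SE) and an adjusted p of 0.00087, which was 0.045 without the trio. With guide RNA against phenol red, limma called 0 of 21601 genes, with 224 (1.04%) at an unadjusted p under 0.05, and edgeR and DESeq2 on the recovered reads also called 0.

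Without a block, limma called no gene separated in the trio between treatments. Of the 864 separated genes, limma tested 824 between guide RNA plus Cas9 and guide RNA alone and called 0, with 5 (0.607%) at an unadjusted p under 0.05, where all genes tested gave 0.917%. For guide RNA plus Cas9 against phenol red, 0 of 818 were called and 9 (1.1%) had an unadjusted p under 0.05, where all genes gave 2.29%. For guide RNA against phenol red, 0 of 826 were called and 6 (0.726%) had an unadjusted p under 0.05. Of the genes past 2-fold, 121, 117 and 124 were tested in these comparisons, and 0 had an unadjusted p under 0.05 in each. A gene that varies between libraries of 1 treatment, as these do by the rule, has a wide error in this test: for setd3 the log2 fold change was -0.04 ± 0.42 (SE) with Cas9 against guide RNA, and for hephl1b it was 0.23 ± 1.09 (SE).

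With table position fitted as a block, chosen with these data in view, limma called 3 genes between guide RNA plus Cas9 and guide RNA alone. The 2 genes besides ncapg2 were both separated lower in the trio, as were 1.82% of all genes, and nothing is read from 2 genes. They were rhcgl1, at a log2 fold change of -0.78, and zgc:165423, at -0.53, each with an adjusted p of 0.0257 under the block and of 0.99997 without it. In the trio, rhcgl1 had 77.8, 94.8 and 40.7 in S12, S7 and S2, against 91.7 to 867 (median 160.01) in the other 12, and zgc:165423 had 2239, 3521 and 2995, against 2768 to 6546 (median 3747), so that both overlapped in deposited values. Under the same block, limma also called the unnamed gene ENSDARG00000078683 between guide RNA plus Cas9 and phenol red. Between guide RNA and phenol red it called rpe65a, rbp2a, nppa and vmhcl. Whether these were separated in the trio is not described here.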

How the data were processed

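RNA was measured in 15 pools of 20 zebrafish heads. The tools named, per the submitters' processing notes, are STAR, HTSeq, DESeq2, bcl2fastq, cutadapt and Trim Galore. Versions, settings, genome build and strand setting are not stated in the sources used here. The authors deposited 3 tables of 10 libraries each, holding a normalized signal per gene (count divided by a size factor), identical between tables. The log2 fold changes, test score and p-values deposited beside them were not used. Every value was a whole multiple of 1 read within 0.001 of a read (100% of values), which gave whole reads. Column names carry no replicate number and are used as library names.

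Members and gene lists (39 lists, 1099 of 1219 symbols matched, 48 by synonym in RefSeq GRCz12tu, and 21 name prefixes) were chosen with earlier results of these data known. Named genes were ncapg2, up to 15 separated genes past 2-fold per direction with a mean of 50 or more (13 each), 3 clone-style genes per direction, genes on or off in the trio, and up to 4 separated members per list described (the 3 most abundant where none was separated). A gene selected by this rule is not reported here. Treatment groups were compared with limma 3.58.1 in R 4.3.3 (trend, robust, log2(value + 1), genes reaching 10 in 5 or more libraries, Benjamini-Hochberg over all genes, threshold 0.05), with edgeR 4.0.16 and DESeq2 1.42.0 on recovered reads as alternatives. Replicates are biological by the series design, and a p-value reflects the variation among pools. The steps were tested on simulated data.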

Additional observations from a re-analysis of the deposited data

Results flagged for a closer look

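The total of recovered reads in the phenol red group had 1 library far from the others. S5 had 46.5 M reads, while the other 4 phenol red libraries, S2 among them, had 34.97 to 37.1 M. The gap divided by the group's range was 0.816, above Dixon's critical value of 0.71 for 5 samples. It was 1 of 30 groups of values examined, and chance puts about 1 in 20 groups past this value.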

How the results depend on the processing

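No result reversed under the alternatives run. The 67 higher genes became 38 and the 85 lower genes 40 with a pseudocount of 10, 30 and 44 with a filter of 50, 125 and 152 at 1.5-fold, and 16 and 30 at 4-fold, as fewer or more genes reach each limit. Leaving out S5, S10 and S15, chosen after seeing the data, gave 133 lower genes; the cause was not tested. With each library left out, the counts were 56 to 76 higher and 79 to 118 lower. Other pseudocounts, no filter, TMM rescaling and no centring kept both counts within 1.5 times.

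Among treatment comparisons, table position as a block gave 3 called genes between guide RNA plus Cas9 and guide RNA alone, 2 between guide RNA plus Cas9 and phenol red and 4 between guide RNA and phenol red, and DESeq2 gave 2 between guide RNA plus Cas9 and phenol red; the cause was not tested. With each library left out, the counts were 1 to 1, 1 to 1 and 0 to 0, and the ncapg2 log2 fold change was -1.15 to -1.05. Of the alternatives for single genes of the trio, 954 moved by less than the spread and 102 by more, and for list medians 315 and 27. No paired analysis was possible because the columns carry no replicate numbers from the labels; the block by table position was used in its place. For the 15 lower genes with at most 3 reads over the trio, counting limits how far the size of the difference is known.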

Other observations

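The shares of separated genes in large families lay near or under those of all genes, 2.06% higher and 1.82% lower, and the members named here are described for their own values. Of 97 cytosolic ribosomal protein genes, rpl31 was the 1 separated (1.03%), with normalized counts of 14539, 14049 and 12501 in S12, S7 and S2, against 15482 to 24865 (median 21498) in the other 12 (difference -0.60 ± 0.18). Of 101 nuclear genes of the respiratory chain, 1 was separated higher (0.990%) and 2 lower (1.98%), among them cox7a1 at 115, 109 and 93.6 in the trio, against 169 to 244 (median 186) (difference -0.88 ± 0.22). Of 57 collagen genes, 1 was separated lower and col28a1b was the 1 separated higher (1.75% each), at 153, 151 and 214, against 83.1 to 102 (median 94.0) (difference 0.88 ± 0.29).

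Of 30 erythroid genes, 17 were positive, the median difference was 0.01 and 2 were separated lower (6.67%, against 1.82% of all genes): si:ch211-5k11.12 was lower, at 1478, 1416 and 1551 in S12, S7 and S2, against 1654 to 3950.1 (median 2507) in the other 12, and the mitochondrial iron importer gene slc25a37 was lower too, at 93.5, 132 and 107, against 133 to 171 (median 142); the summed count of the list was 47403 in S12, 43173 in S7 and 50941 in S2, against 35431 to 63232 in the other 12. Of 306 zinc finger genes matched by prefix, 6 were separated higher and 6 lower (1.96% each). The antigen presentation list had 1 of 34 members separated higher, tapbp.2, at 53.3, 59.7 and 55.0, against 18.4 to 52.1 (median 30.2) in the other 12, and none of 14 genes matched as MHC class I was separated. The skeletal muscle gene smyhc2, a slow myosin, was higher at 2924, 2859 and 2795, against 1684 to 2598 (median 2127), as the 1 separated gene of 52 on its list.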
